A study of Mus musculus with 3 samples.

Results

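The semaphorin, plexin, neuropilin, Slit and Robo genes encode the ligands and receptors of 2 systems of guidance signals between cells. They were found by their symbols in the array's probe annotation, which gave 38 of the 18193 genes named there: 23 ligands (20 semaphorins and 3 Slits) and 15 receptors (9 plexins, 2 neuropilins and 4 Robos). They were measured in endosteal cells, the cells along the inner surface of bone, which collagenase released from femur and tibia fragments of C57BL/6 mice. The cells were negative for CD45, CD31 and Ter119, the surface markers of leukocytes, endothelium and red cells. They were sorted on the adhesion molecule ALCAM and the progenitor marker Sca-1 into ALCAM+ Sca-1- cells (called ALCAM+ cells), ALCAM- Sca-1+ cells (Sca-1+ cells) and ALCAM- Sca-1- cells (double-negative cells). Each population was hybridised to 1 array, so no difference has a replicate check or a test, and the number of arrays limits the precision. Neither the age of the mice nor how many were pooled is given in the sources used here.

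Semaphorins are secreted or membrane-bound ligands that act through plexins, and the secreted class 3 members mostly need a neuropilin as the plexin's partner. Slits are large secreted proteins bound by Robo receptors with the help of heparan sulphate. Both systems were found as steering cues of growing axons and also act on vessels, immune cells and bone. In mice, Sema3A restrains osteoclasts and favours bone formation, whereas Sema4D, known from osteoclasts, restrains osteoblasts through plexin-B1.

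Values are deposited signals on a linear scale, and levels are compared between populations within a probe set, never between genes. Each gene is represented by its brightest probe set. A floor was set at a signal of 75.4, the median over the probe sets that are not controls, and a fold against a value at or below it is given as "at least". On 1 or more arrays 33 of the 38 genes exceeded the floor (20 ligands and 13 receptors), as did 12643 of all genes. The other 5, Sema3g, Sema6b, Slit1, Robo3 and Robo4, did not exceed it on any of the 3 arrays.

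The sort was checked on Alcam, whose brightest probe set gave 267.7 for ALCAM+ cells, 41.1 for Sca-1+ cells and 36.3 for double-negative cells. The 7 osteoblast markers on the array were all at least 4-fold higher in ALCAM+ cells than in Sca-1+ cells (3.99% of all measured genes). In ALCAM+ cells 3 of the 7 were also at least 4-fold higher than in double-negative cells (2.01%). The 7 summed to 145596 in ALCAM+ cells, 9976 in Sca-1+ cells and 46628 in double-negative cells. Of 8 fibroblast and progenitor markers, 8 were higher by at least 4-fold in Sca-1+ cells than in double-negative cells (5.46% of all measured genes). Their summed signal was 5937 in ALCAM+ cells, 106234 in Sca-1+ cells and 2936 in double-negative cells. The 8 chondrocyte markers summed to 192856 in ALCAM+ cells, 30047 in Sca-1+ cells and 160446 in double-negative cells. Comp gave most of the Sca-1+ sum, with 36933 in ALCAM+ cells, 25933 in Sca-1+ cells and 30884 in double-negative cells. The median signal of the 8 was 29896 in ALCAM+ cells, 331.1 in Sca-1+ cells and 23475 in double-negative cells. Double-negative cells carried erythroid and dividing-cell signal: 7 erythroid markers summed to 382.8 in ALCAM+ cells, 293.9 in Sca-1+ cells and 17469 in double-negative cells, and 9 cell cycle genes to 1384 in ALCAM+ cells, 1276 in Sca-1+ cells and 27058 in double-negative cells. In bulk samples such as these, fewer cells of a type and less RNA per cell cannot be told apart, and the part of this difference in makeup in the results that follow was not tested.

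A gene at least 4-fold apart was counted as higher or lower. In 1 or more of the 3 comparisons 14 of the 33 measured genes passed this size, against 14.8% of all measured genes. Ligands made up most of them, 11 of 20, beside 3 of 13 receptors. ALCAM+ cells had the highest signal for 14 of the 33 genes, Sca-1+ cells for 16 and double-negative cells for 3 (Sema5b, Sema6a and Plxnc1), where of all measured genes 28.1% were highest in ALCAM+ cells, 38.7% in Sca-1+ cells and 33.2% in double-negative cells. A gene above the floor in 1 population alone was measured through that population and had to be highest there. These counts therefore describe the arrays and support nothing further.

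ALCAM+ cells stood at least 4-fold above both other populations in 4 genes, Nrp2, Slit2, Sema4d and Sema6d, where 1.09% of all measured genes did so. With the probe sets of a gene averaged, the log2 difference was 1.58 for Sema4d against double-negative cells, and for Sema6d 1.39 against double-negative cells and 1.16 against Sca-1+ cells, all below 4-fold. With poly-A control scaling it was 1.95 for Sema4d against double-negative cells and 1.67 for Sema6d against Sca-1+ cells. Sca-1+ cells stood at least 4-fold above both others in 3 genes, Sema3c, Sema3e and Sema3f, against 4.03% of all genes. With probe sets averaged, Sema3f fell below 4-fold in both of these comparisons, with a log2 difference of 1.47 against double-negative cells. Double-negative cells stood at least 4-fold above both others in 0 genes, against 1.62% of all genes. Slit3 was far higher in both marker-positive populations than in double-negative cells.

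The class 3 semaphorins, the secreted ligands of neuropilin and plexin receptors, divided between the populations: Sema3c, Sema3e and Sema3f were high in Sca-1+ cells and Sema3d in ALCAM+ cells. Sema3c, a ligand of both neuropilins, had a signal of 1074 in ALCAM+ cells, 9997 in Sca-1+ cells and 1828 in double-negative cells. It was 9.30-fold lower in ALCAM+ cells than in Sca-1+ cells, and 5.47-fold higher in Sca-1+ cells than in double-negative cells. Its other probe set had the same order, with 160.0 in ALCAM+ cells, 1069.5 in Sca-1+ cells and 199.5 in double-negative cells.

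Sema3e encodes the class 3 member that can bind plexin-D1 without a neuropilin. Its signal was 192.1 in ALCAM+ cells, 1988 in Sca-1+ cells and 319.9 in double-negative cells. It was 10.3-fold lower in ALCAM+ cells than in Sca-1+ cells, and 6.21-fold higher in Sca-1+ cells than in double-negative cells. All 4 of its probe sets were highest in Sca-1+ cells. The next probe set gave 154.1 in ALCAM+ cells, 1747.2 in Sca-1+ cells and 340.8 in double-negative cells. The others, at 525.7 and 262.2 in Sca-1+ cells, exceeded the floor there alone and had to be highest there. The 8 fibroblast and progenitor markers had their highest summed signal in the same cells.

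Sema3f, whose product prefers neuropilin-2, gave 47.2 in ALCAM+ cells, 568.5 in Sca-1+ cells and 103.8 in double-negative cells. It was lower by at least 7.54-fold in ALCAM+ cells than in Sca-1+ cells, and 5.48-fold higher in Sca-1+ cells than in double-negative cells. Its other 2 probe sets exceeded the floor in Sca-1+ cells alone, at 208.1 and 106.0. They stood at least 2.76-fold and at least 1.41-fold above both other populations. Sema3a, whose product binds neuropilin-1, pointed the same way below 4-fold, with 222.9 in ALCAM+ cells, 697.7 in Sca-1+ cells and 272.9 in double-negative cells.

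Sema3d ran the opposite way and was lowest in Sca-1+ cells. It gave 8279.9 in ALCAM+ cells, 1279.7 in Sca-1+ cells and 3668 in double-negative cells, which is 6.47-fold higher in ALCAM+ cells than in Sca-1+ cells and 2.26-fold higher than in double-negative cells. Its other probe set kept this order, with 609.7 in ALCAM+ cells, 61.3 in Sca-1+ cells and 323.6 in double-negative cells. Sema3a, Sema3c, Sema3d and Sema3e lie in 1 stretch of chromosome 5: in the RefSeq gene order Sema3d and Sema3a have 0 coding genes between them, Sema3a and Sema3e 3, and Sema3e and Sema3c 15.

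Sema3b was high in both marker-positive populations, with 2233 in ALCAM+ cells, 1399 in Sca-1+ cells and 356.2 in double-negative cells. It was 6.27-fold higher in ALCAM+ cells than in double-negative cells and, just short of the count, 3.93-fold higher in Sca-1+ cells than in double-negative cells. Its other 2 probe sets kept that order. Sema3b and Sema3f have 3 coding genes between them, and ALCAM+ cells were highest for Sema3b (lower than Sca-1+ cells when scaled on spike-in controls) and lowest for Sema3f. Over the 6 measured class 3 genes the median log2 difference was -2.28 for ALCAM+ against Sca-1+ cells, beside -0.01 over all measured genes.

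**Figure D1:**
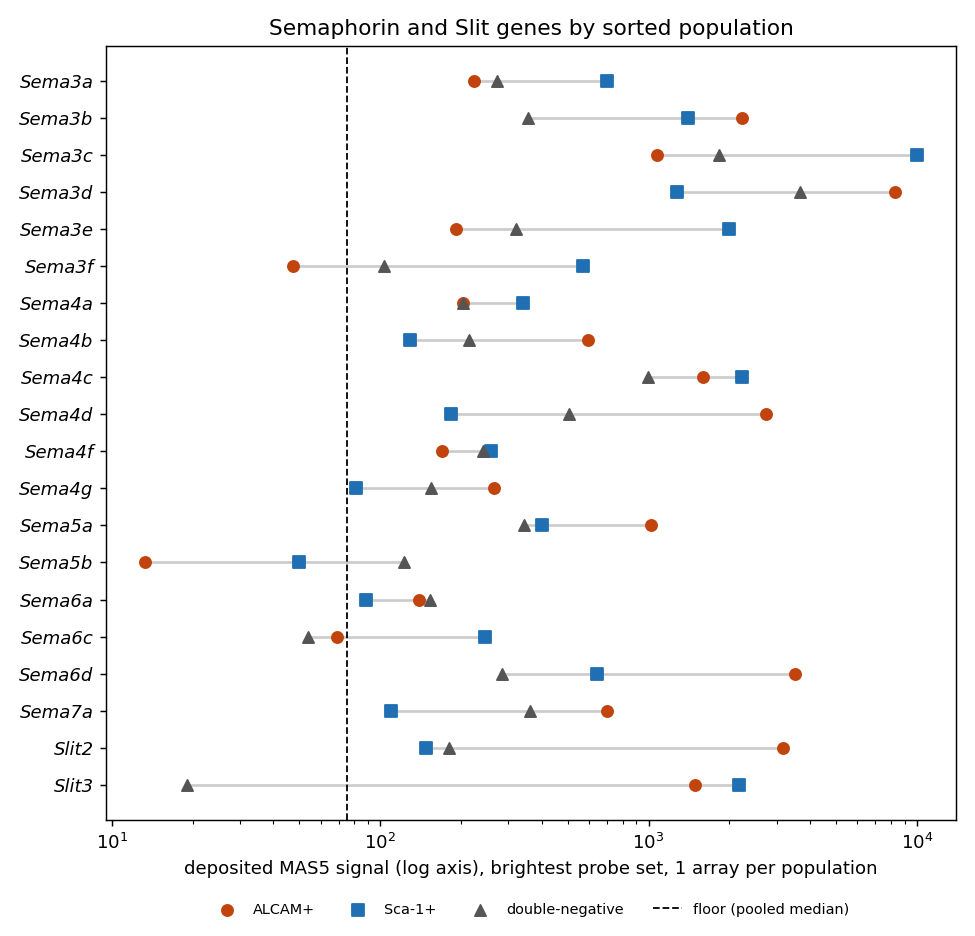
Signal of the 20 measured semaphorin and Slit genes (rows) on a log axis, 1 point per population and array (circle ALCAM+, square Sca-1+, triangle double-negative), with the floor of 75.4 as a dashed line. Sema3c, Sema3e and Sema3f have the Sca-1+ square far to the right, Sema4d, Sema6d and Slit2 the ALCAM+ circle, and Slit3 has both of them above a double-negative value of 19.1.

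The semaphorins of classes 4 to 7 are anchored in the membrane. Of the 12 measured, 4 were higher by at least 4-fold in ALCAM+ cells than in Sca-1+ cells (3.99% of all measured genes). In Sca-1+ cells 0 passed this size against double-negative cells (5.46% of all genes) or ALCAM+ cells (5.86%), but Sema6c, for which the fold is only a lower bound, passed it with a log2 difference of 2.18 against double-negative cells with the floor at the 25th percentile and 2.06 with poly-A control scaling. Sema4d, which encodes the plexin-B1 ligand also known as CD100 on lymphocytes, gave 2747 in ALCAM+ cells, 183.5 in Sca-1+ cells and 504.9 in double-negative cells. It was 15.0-fold higher in ALCAM+ cells than in Sca-1+ cells and 5.44-fold higher than in double-negative cells. Its other 2 probe sets exceeded the floor in ALCAM+ cells alone, at 317.7 and 88.2.

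Sema4D is known from lymphocytes and osteoclasts, so the markers of both are given beside it. Ptprc, which encodes CD45, had 11.6 in ALCAM+ cells, 163.2 in Sca-1+ cells and 159.4 in double-negative cells. Of 8 leukocyte markers 3 exceeded the floor in ALCAM+ cells, Csf1r, Laptm5 (105.4) and Lyz2 (96.6). Csf1r was highest there, with 201.3 in ALCAM+ cells, 166.2 in Sca-1+ cells and 133.5 in double-negative cells. Laptm5 and Lyz2 were lowest there. Of 8 osteoclast markers 4 exceeded the floor anywhere and 2 in ALCAM+ cells, Ctsk and Acp5. Ocstamp, Dcstamp, Calcr and Oscar did not exceed it on the 3 arrays. The list summed to 7256 in ALCAM+ cells, 10959 in Sca-1+ cells and 3997 in double-negative cells, most of it from Ctsk, with 6778 in ALCAM+ cells, 9739 in Sca-1+ cells and 3290.3 in double-negative cells. The part of leukocytes and osteoclasts in the Sema4d signal was not tested.

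Sema6d, which encodes a ligand of plexin-A1, gave 3526 in ALCAM+ cells, 640.0 in Sca-1+ cells and 283.9 in double-negative cells. It was 5.51-fold higher in ALCAM+ cells than in Sca-1+ cells and 12.4-fold higher than in double-negative cells. In the next probe set ALCAM+ cells were again highest, by less than 4-fold, with 259.8 in ALCAM+ cells, 70.4 in Sca-1+ cells and 88.9 in double-negative cells. Sema7a, whose product has a lipid anchor and can bind integrins and plexin-C1, gave 700.8 in ALCAM+ cells, 109.7 in Sca-1+ cells and 361.2 in double-negative cells. It was 6.39-fold higher in ALCAM+ cells than in Sca-1+ cells. Sema4b gave 594.5 in ALCAM+ cells, 129.1 in Sca-1+ cells and 214.9 in double-negative cells and was 4.60-fold higher in ALCAM+ cells than in Sca-1+ cells. With scaling by poly-A controls, the log2 difference between these populations was 1.88 for Sema7a and 1.41 for Sema4b, both below 4-fold.

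The other members of classes 4 to 7 did not pass 4-fold at this floor. Sema5a was highest in ALCAM+ cells in all 3 of its probe sets that exceeded the floor. The brightest gave 1021 in ALCAM+ cells, 402.6 in Sca-1+ cells and 344.1 in double-negative cells. The dimmest of these, at 261.1 in ALCAM+ cells, exceeded the floor there alone and had to be highest there. Sema4g was also highest there, with 266.4 in ALCAM+ cells, 81.1 in Sca-1+ cells and 155.2 in double-negative cells. Sema4a, Sema4c, Sema4f and Sema6c were highest in Sca-1+ cells instead.

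Sema4c gave 1597 in ALCAM+ cells, 2228 in Sca-1+ cells and 991.7 in double-negative cells. Sema4a gave 204.3 in ALCAM+ cells, 341.8 in Sca-1+ cells and 203.8 in double-negative cells. Sema6c exceeded the floor in Sca-1+ cells alone, with 68.8 in ALCAM+ cells, 245.0 in Sca-1+ cells and 53.9 in double-negative cells. Sema4f and Sema6a were nearly even, Sema4f with 170.7 in ALCAM+ cells, 259.6 in Sca-1+ cells and 241.3 in double-negative cells, and Sema6a with 139.6 in ALCAM+ cells, 88.3 in Sca-1+ cells and 153.4 in double-negative cells. Sema5b exceeded the floor in double-negative cells alone, with 13.3 in ALCAM+ cells, 49.9 in Sca-1+ cells and 122.6 in double-negative cells, and its other probe set gave 117.5 in double-negative cells.

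Of the 3 Slits, Slit2 was bright in ALCAM+ cells, with 3167 in ALCAM+ cells, 148.4 in Sca-1+ cells and 181.1 in double-negative cells. It was 21.3-fold higher in ALCAM+ cells than in Sca-1+ cells and 17.5-fold higher than in double-negative cells. Its other 2 probe sets exceeded the floor in ALCAM+ cells alone, at 391.2 and 124.6. Slit3 had another pattern, with 1496 in ALCAM+ cells, 2175 in Sca-1+ cells and 19.1 in double-negative cells. It was higher by at least 19.8-fold in ALCAM+ cells and higher by at least 28.8-fold in Sca-1+ cells than in double-negative cells, and 1.45-fold apart between the marker-positive populations. Only 1 probe set carries the name Slit3, so no other one checks it.

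Among the receptors, the neuropilins bind class 3 semaphorins and also members of the VEGF family. Each was highest in a different population, Nrp2 in ALCAM+ cells and Nrp1 in Sca-1+ cells. Nrp2 gave 15408 in ALCAM+ cells, 666.0 in Sca-1+ cells and 601.6 in double-negative cells, which is 23.1-fold higher in ALCAM+ cells than in Sca-1+ cells and 25.6-fold higher than in double-negative cells. These were the largest differences of the 33 genes with both signals above the floor. The next probe set gave 7391 in ALCAM+ cells, 587.7 in Sca-1+ cells and 466.7 in double-negative cells, and all 4 probe sets were highest in ALCAM+ cells.

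Nrp1 gave 1671 in ALCAM+ cells, 4639 in Sca-1+ cells and 713.6 in double-negative cells. It was 6.50-fold higher in Sca-1+ cells than in double-negative cells, 2.34-fold higher in ALCAM+ cells than in double-negative cells and 2.78-fold lower in ALCAM+ cells than in Sca-1+ cells. Of its other 3 probe sets 2 gave the same order. The last, annotated to a different transcript entry, was highest in double-negative cells, with 339.7 in ALCAM+ cells, 358.5 in Sca-1+ cells and 636.9 in double-negative cells. Sema3f, for a neuropilin-2 ligand, was thus below the floor in ALCAM+ cells, where Nrp2 was brightest, while Sema3a and Nrp1 were both highest in Sca-1+ cells. With signals as deposited, 2 of the 6 measured class 3 genes (Sema3b and Sema3d) were highest in ALCAM+ cells, as Nrp2 was. The other 4 were highest in Sca-1+ cells.

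**Figure D2:**
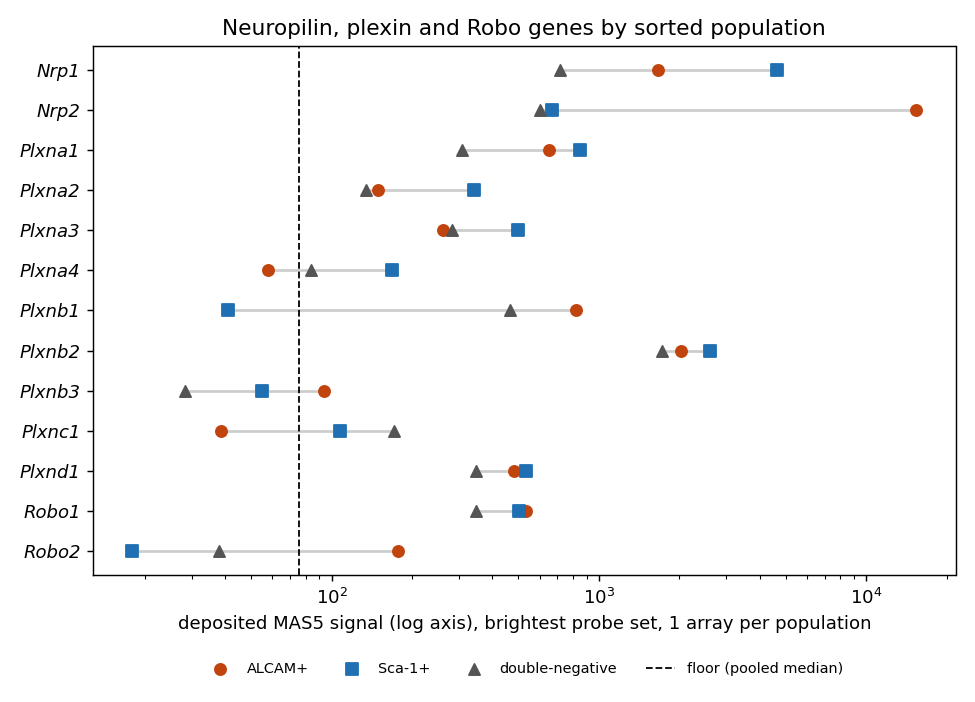
Signal of the 13 measured neuropilin, plexin and Robo genes (rows) on a log axis, with 1 point per population and array and the floor of 75.4 as a dashed line. Nrp2 has the ALCAM+ circle at 15408 and the Sca-1+ square (666.0) and double-negative triangle (601.6) close together far to the left of it, while Plxnb2, Plxnd1 and Robo1 have the 3 points close together.

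The plexins, the signalling receptors, varied less. Plxnb1, which encodes the receptor of Sema4D, was the plexin gene that passed 4-fold at this floor, with 819.6 in ALCAM+ cells, 40.9 in Sca-1+ cells and 467.3 in double-negative cells. It was higher by at least 10.9-fold in ALCAM+ cells than in Sca-1+ cells, and lower by at least 6.20-fold in Sca-1+ cells than in double-negative cells. In its other probe set Sca-1+ cells were again lowest but ALCAM+ cells no longer highest, with 444.8 in ALCAM+ cells, 124.5 in Sca-1+ cells and 736.9 in double-negative cells. Plxnb1 and its ligand gene Sema4d were both lowest in Sca-1+ cells.

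The class A plexins, the partners of the neuropilins, were highest in Sca-1+ cells in 4 of 4 genes (38.7% of all measured genes). The differences were below 4-fold in each comparison. The other probe sets of Plxna1 and Plxna4 were below the floor on every array. Plxna1 gave 650.1 in ALCAM+ cells, 847.1 in Sca-1+ cells and 308.6 in double-negative cells. Plxna2 gave 149.3 in ALCAM+ cells, 340.6 in Sca-1+ cells and 134.2 in double-negative cells. Plxna3 and Plxna4 had the same top population, Plxna3 with 260.8 in ALCAM+ cells, 498.1 in Sca-1+ cells and 282.3 in double-negative cells, and Plxna4 with 57.9 in ALCAM+ cells, 168.0 in Sca-1+ cells and 83.9 in double-negative cells.

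Plxnd1, which encodes the receptor of Sema3E, and Plxnb2, whose product binds class 4 semaphorins, differed by at most 1.54-fold between populations. Plxnd1 gave 482.0 in ALCAM+ cells, 532.6 in Sca-1+ cells and 346.4 in double-negative cells. Plxnb2 gave 2035 in ALCAM+ cells, 2599 in Sca-1+ cells and 1729 in double-negative cells. Plxnb3 exceeded the floor in ALCAM+ cells alone, with 93.7 in ALCAM+ cells, 54.8 in Sca-1+ cells and 28.3 in double-negative cells.

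Plxnc1, for a plexin of leukocytes among other cells, was highest in double-negative cells, with 38.7 in ALCAM+ cells, 107.7 in Sca-1+ cells and 171.9 in double-negative cells. Its ALCAM+ signal lay below the floor, and with the floor at the 25th percentile the log2 difference of ALCAM+ minus double-negative cells was -2.15. The 8 leukocyte markers on the array summed to 502.9 in ALCAM+ cells, 1620 in Sca-1+ cells and 1010 in double-negative cells, with Cd3e, Itgam and Cd79a below the floor on the 3 arrays. Lyz2 gave most of the Sca-1+ sum, with 96.6 in ALCAM+ cells, 888.0 in Sca-1+ cells and 262.3 in double-negative cells. Laptm5 had the order of Plxnc1, with 105.4 in ALCAM+ cells, 171.5 in Sca-1+ cells and 233.0 in double-negative cells. Csf1r had the reverse order, with 201.3 in ALCAM+ cells, 166.2 in Sca-1+ cells and 133.5 in double-negative cells. Ptprc and Coro1a were highest in Sca-1+ cells and below the floor in ALCAM+ cells. The part of leukocytes in the Plxnc1 signal was not tested.

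Robo1, for a receptor of Slits, was close to even, with 532.6 in ALCAM+ cells, 503.9 in Sca-1+ cells and 346.4 in double-negative cells. Robo2, its neighbour with 0 coding genes between them, exceeded the floor in ALCAM+ cells alone, with 178.0 in ALCAM+ cells, 18.0 in Sca-1+ cells and 37.8 in double-negative cells, at least 2.36-fold higher there. Slit2 was highest in ALCAM+ cells too, but Robo2 passed the floor through these cells alone and had to be highest there. Robo4, for the Robo of endothelium, was below the floor, with 58.1 in ALCAM+ cells, 14.1 in Sca-1+ cells and 52.1 in double-negative cells. Of 10 endothelial markers Pecam1, Cdh5, Tie1, Emcn and Cldn5 were also below it on the 3 arrays, and the list summed to 393.7 in ALCAM+ cells, 955.8 in Sca-1+ cells and 551.6 in double-negative cells, with Tek at 630.6 in Sca-1+ cells.

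Counted by comparison, ALCAM+ against double-negative cells gave 6 genes higher (Sema3b, Sema4d, Sema6d, Slit2, Slit3 and Nrp2) and 0 lower, beside 2.01% of all measured genes higher and 2.67% lower. The median log2 difference of the 33 genes was 0.62, and -0.03 over all genes. Sca-1+ against double-negative cells gave 5 higher (Sema3c, Sema3e, Sema3f, Slit3 and Nrp1) and 1 lower (Plxnb1), beside 5.46% of all genes higher and 4.71% lower, with a median of 0.59 against 0 over all genes. ALCAM+ against Sca-1+ cells gave 8 higher (Sema3d, Sema4b, Sema4d, Sema6d, Sema7a, Slit2, Nrp2 and Plxnb1) and 3 lower (Sema3c, Sema3e and Sema3f), beside 3.99% of all genes higher and 5.86% lower. The medians there were -0.14 over the 33 genes and -0.01 over all genes. With poly-A control scaling the median of all genes moved to -0.74. The split was then 4 higher and 6 lower of 34 members, beside 291 higher and 1434 lower of 12763 genes. The comparisons share arrays, so their counts are not independent of each other.

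**Figure D3:**
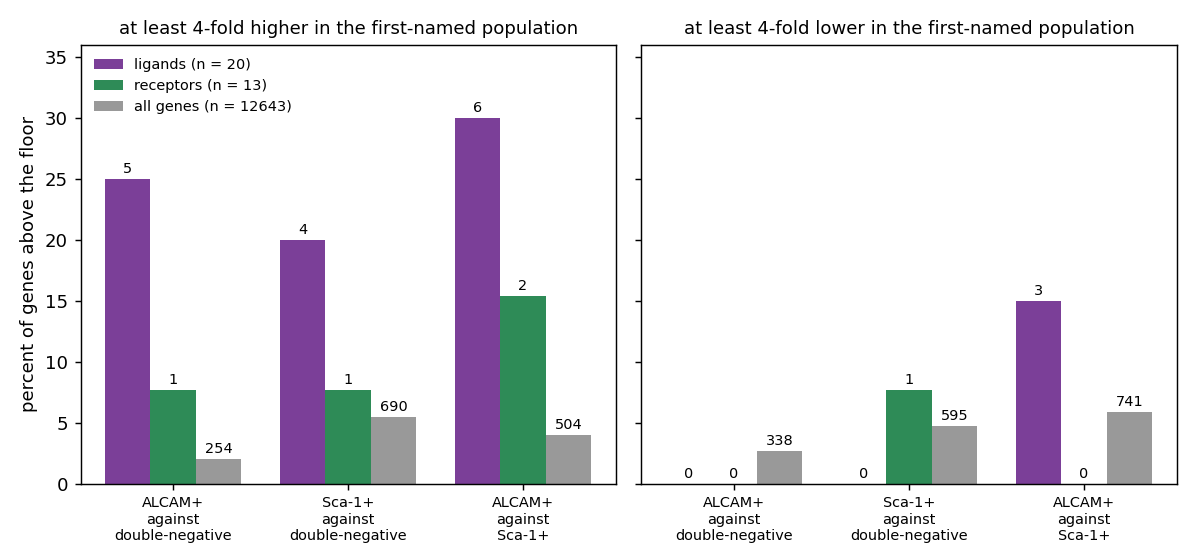
Percent of the 20 measured ligands, the 13 measured receptors and all 12643 measured genes that were at least 4-fold higher (left) or lower (right) in the first-named population of each comparison, with the number of genes above each bar. Ligands reach 30% higher and 15% lower for ALCAM+ against Sca-1+ cells, where 3.99% and 5.86% of all genes lie.

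Other probe sets of a gene are a partial check, since they read the same RNA. A probe set above the floor in 1 population alone can only point to that population. That was so for the other probe sets of Slit2, Sema4d and Sema3f. It was also so for those of Sema3e at 525.7 and 262.2 in Sca-1+ cells and that of Sema6d at 98.2 in ALCAM+ cells. Their agreement was fixed by the filter, and the counts that follow include them. The other probe sets of Sema4b and Sema7a were below the floor on every array and were not counted. Of the 8 genes higher in ALCAM+ cells than in Sca-1+ cells 6 had another probe set above the floor, and in 6 of these 6 all others pointed the same way. The same held for 3 of 3 genes lower there and for 5 of 5 genes higher in ALCAM+ cells than in double-negative cells. For Sca-1+ against double-negative cells it held in 3 of 4 higher genes, the exception being Nrp1, and in 1 of 1 lower gene. Over 4152 genes with 2 probe sets above the floor on every array, the gap between the log2 differences of the 2 had an SD of 0.75 for ALCAM+ against Sca-1+ cells, 0.54 for ALCAM+ against double-negative cells and 0.67 for Sca-1+ against double-negative cells. The spread between sorts and animals is not in these values.

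**Figure D4:**
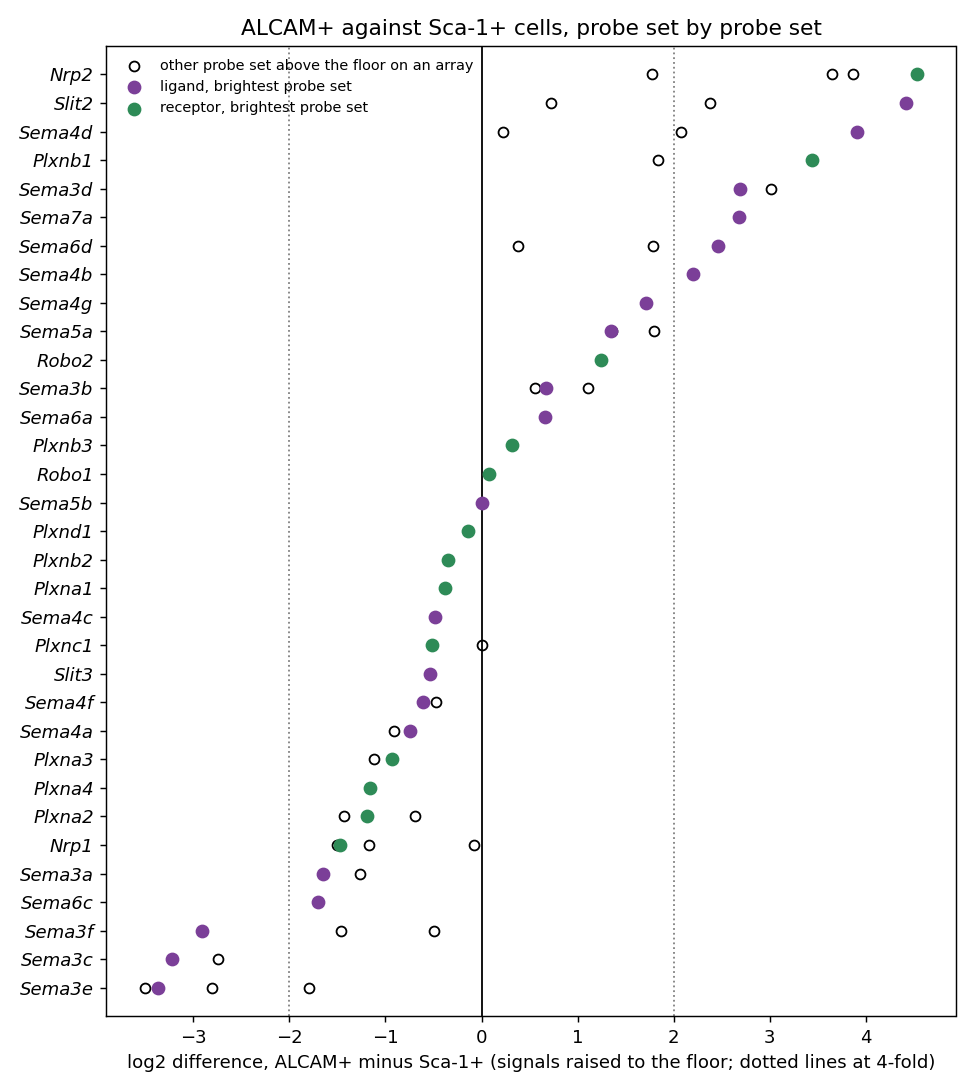
Log2 difference of ALCAM+ minus Sca-1+ for the 33 measured genes, sorted, with filled points for the brightest probe set (purple ligands, green receptors), open points for other probe sets above the floor on an array and dotted lines at 4-fold. Nrp2 and Slit2 stand at the top at 4.53 and 4.42, and Sema3e, Sema3c and Sema3f at the bottom at -3.37, -3.22 and -2.91.

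The promoters of 5 genes with large differences are shown so that genes bright in the same population can be read side by side: Nrp2 and Slit2 (ALCAM+ cells), Slit3 (both marker-positive populations) and Sema3c and Sema3e (Sca-1+ cells). Each is the 250 bases before the RefSeq start on GRCm38.p6, with capitals for the GC box GGGCGG on either strand, overlapping matches included.
Nrp2, chr1:62703067-62703316, plus strand: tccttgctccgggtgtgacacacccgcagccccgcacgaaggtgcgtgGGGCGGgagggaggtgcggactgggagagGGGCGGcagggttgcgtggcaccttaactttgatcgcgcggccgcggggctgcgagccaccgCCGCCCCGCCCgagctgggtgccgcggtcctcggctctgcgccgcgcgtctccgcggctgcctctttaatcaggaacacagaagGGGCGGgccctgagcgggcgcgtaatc
Slit2, chr5:47982905-47983154, plus strand: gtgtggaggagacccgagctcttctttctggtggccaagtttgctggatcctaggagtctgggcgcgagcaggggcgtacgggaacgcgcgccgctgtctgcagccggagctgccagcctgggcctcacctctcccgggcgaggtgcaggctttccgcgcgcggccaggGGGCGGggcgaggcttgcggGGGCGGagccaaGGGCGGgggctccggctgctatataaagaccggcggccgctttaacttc
Slit3, chr11:35121206-35121455, plus strand: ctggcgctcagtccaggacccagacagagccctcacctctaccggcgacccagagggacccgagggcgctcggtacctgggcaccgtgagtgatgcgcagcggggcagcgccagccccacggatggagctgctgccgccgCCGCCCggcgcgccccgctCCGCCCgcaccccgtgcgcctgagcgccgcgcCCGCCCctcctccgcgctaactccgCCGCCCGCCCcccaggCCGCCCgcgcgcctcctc
Sema3c, chr5:17574566-17574815, plus strand: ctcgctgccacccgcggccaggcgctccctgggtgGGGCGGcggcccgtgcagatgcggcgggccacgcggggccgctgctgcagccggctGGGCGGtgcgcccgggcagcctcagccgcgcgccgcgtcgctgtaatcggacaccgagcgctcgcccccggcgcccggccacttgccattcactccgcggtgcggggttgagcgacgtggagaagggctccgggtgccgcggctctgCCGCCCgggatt
Sema3e, chr5:14025026-14025275, plus strand: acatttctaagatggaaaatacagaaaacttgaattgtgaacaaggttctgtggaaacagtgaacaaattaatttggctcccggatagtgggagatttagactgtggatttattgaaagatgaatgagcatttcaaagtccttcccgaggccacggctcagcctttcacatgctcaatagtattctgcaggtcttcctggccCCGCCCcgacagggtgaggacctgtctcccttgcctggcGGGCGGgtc
The GC box occurred 5 times in Nrp2, 3 in Slit2, 6 in Slit3, 3 in Sema3c and 2 in Sema3e, in promoters of genes bright in either population. It was present in 66.7% of the 45 windows that RefSeq gives for 32 of the 38 genes, and in 32.7% of all 32851 windows of that length. The median GC content was 63.6% in the 45 windows and 52.4% in all. The RUNX core TGTGGT, a motif of bone transcription factors, was in 11.1% of the 45 windows, 14.0% of all windows and 0 of the 5 shown. The TATA box TATAAA was in Slit2 alone among the 45 windows (2.22%, against 12.4% of all), and CCAAT was in 17.8% against 33.8%, both read on either strand. These are matches of letters in a window and say nothing about binding.

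Genes that carry the signal onward were described from lists of known partners. Of 27 measured genes of plexin and neuropilin signalling, 2 were higher and 0 lower in ALCAM+ cells than in double-negative cells (2.01% and 2.67% of all measured genes). In Sca-1+ cells 4 were higher and 1 lower than in double-negative cells (5.46% and 4.71%), and 2 were higher and 1 lower in ALCAM+ cells than in Sca-1+ cells (3.99% and 5.86%). Farp2, for an exchange factor that acts downstream of Sema3A, was highest in ALCAM+ cells, as Nrp2 was, with 6654 in ALCAM+ cells, 502.3 in Sca-1+ cells and 883.9 in double-negative cells. Fyn, for a kinase of the same pathway, was high in both marker-positive populations, with 4818 in ALCAM+ cells, 3165 in Sca-1+ cells and 571.3 in double-negative cells.

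Dpysl3, for a collapsin response mediator, was highest in Sca-1+ cells, with 5517 in ALCAM+ cells, 9289 in Sca-1+ cells and 1628 in double-negative cells. Rras, for a small GTPase that plexins inactivate, was highest in Sca-1+ cells too, with 1364 in ALCAM+ cells, 7251 in Sca-1+ cells and 1623 in double-negative cells. Its relative Rras2 was instead lowest there, with 2322 in ALCAM+ cells, 539.6 in Sca-1+ cells and 3118 in double-negative cells.

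Of 17 measured Robo signalling genes, 2 were higher in each marker-positive population than in double-negative cells, beside 2.01% of all measured genes for ALCAM+ cells and 5.46% for Sca-1+ cells. Lower were 0 in ALCAM+ cells (2.67% of all genes) and 1 in Sca-1+ cells (4.71%). The 2 higher genes were those of Slit-Robo GTPase-activating proteins, which act on the Robo tail. Srgap1 had 562.5 in ALCAM+ cells, 375.4 in Sca-1+ cells and 62.0 in double-negative cells. Srgap3 had 1275 in ALCAM+ cells, 984.7 in Sca-1+ cells and 196.3 in double-negative cells. Both were low in double-negative cells, as Slit3 was. Enah, for an actin regulator bound by Robo, was 6.45-fold lower in Sca-1+ cells than in double-negative cells. In ALCAM+ against Sca-1+ cells 1 gene was higher and 1 lower (3.99% and 5.86% of all measured genes). Enah was 7.82-fold higher there. Fnbp1 was lower by at least 8.03-fold, with 74.2 in ALCAM+ cells and 605.5 in Sca-1+ cells.

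Among 8 measured heparan sulphate carriers and other Slit and Robo partners, 3 were higher and 2 lower in ALCAM+ cells than in Sca-1+ cells (3.99% and 5.86% of all measured genes). The proteoglycan genes among them differed in direction. Sdc3 gave 11136 in ALCAM+ cells, 1060.0 in Sca-1+ cells and 11958 in double-negative cells. Gpc1, whose product binds Slits, gave 4375 in ALCAM+ cells, 335.5 in Sca-1+ cells and 2447 in double-negative cells. Sdc1 ran the other way, with 720.9 in ALCAM+ cells, 2939.5 in Sca-1+ cells and 1614 in double-negative cells, 4.08-fold lower in ALCAM+ cells than in Sca-1+ cells.

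Of 13 measured co-receptors and other surface partners, 1 was higher and 2 were lower in ALCAM+ cells than in Sca-1+ cells (3.99% and 5.86% of all measured genes). Met, whose product associates with plexin-B1, was highest in Sca-1+ cells, where Plxnb1 was lowest, with 98.5 in ALCAM+ cells, 660.2 in Sca-1+ cells and 183.6 in double-negative cells. Chl1, for an adhesion molecule that partners neuropilin-1, was highest in Sca-1+ cells, as Nrp1 was, with 78.7 in ALCAM+ cells, 912.4 in Sca-1+ cells and 37.4 in double-negative cells. Itga1, for an integrin subunit through which Sema7A can act, had the same order as Sema7a, with 679.4 in ALCAM+ cells, 145.8 in Sca-1+ cells and 307.7 in double-negative cells.

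The array names 5 VEGF family genes, some of whose products bind neuropilins. Vegfc, for a ligand of neuropilin-2, was lowest in ALCAM+ cells, where Nrp2 was brightest, with 130.4 in ALCAM+ cells, 3096 in Sca-1+ cells and 373.4 in double-negative cells. Vegfd exceeded the floor in Sca-1+ cells alone, with 14.1 in ALCAM+ cells, 832.3 in Sca-1+ cells and 20.2 in double-negative cells. Vegfa was highest in ALCAM+ cells, as Nrp2 was, with 4497 in ALCAM+ cells, 903.5 in Sca-1+ cells and 2760.5 in double-negative cells. Pgf was also highest there, with 523.3 in ALCAM+ cells, 226.6 in Sca-1+ cells and 14.1 in double-negative cells.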

How the data were processed

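RNA of the 3 sorted populations was labelled with biotin in a 2-cycle assay, per the labels' protocols, and the deposited values are signal intensities on a linear scale. The submitters' processing notes name MAS5 as the authors' software, with no version. The 2% trimmed mean was 500 on each array, so signals were used as deposited. Such scaling hides differences in total RNA, and 2-cycle labelling favours 3' ends. Of 45037 probe sets that are not controls, 34945 had 1 gene symbol, 932 had several and 9160 are unnamed here. Symbols were looked up by Entrez identifier in a RefSeq table (GRCm38.p6), which found 34741 and changed 0. Signals were raised to the pooled median (75.4) and turned to log2. The brightest probe set by mean over the 3 arrays stood for a gene. With 1 array per population there was no test. All members were named, and of lists of partners genes at least 4-fold apart. Neo1 and the cell type markers given beside a result were named after their values were seen. The members, gene lists and promoter motifs were chosen with earlier results of these data known. The alternatives were quantile normalization, scaling on control probe sets, floors at the 25th and 75th percentiles, a pseudocount of 75.4, the mean over probe sets and the second-brightest probe set. Python 3.11.15, numpy 2.4.6 and pandas 2.3.3 were used.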

Additional observations from a re-analysis of the deposited data

How the results depend on the processing

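Of 23 differences of at least 4-fold, 11 stayed at least 4-fold under every alternative run (8, or 7 for Slit3 with its 1 probe set), and 0 changed direction. Those kept were Nrp2, Slit2 and Sema3b in ALCAM+ against double-negative cells, Sema3c, Sema3e and Slit3 in Sca-1+ against double-negative cells and Nrp2, Sema3c, Sema3e, Sema4d and Slit2 in ALCAM+ against Sca-1+ cells. Least stable were Sema4b (kept under 2 of 8), Sema7a (3) and, at 4 each, Sema3f in Sca-1+ against double-negative cells and Sema6d in ALCAM+ against Sca-1+ cells. Scaling on the poly-A or the hybridization controls moved the median of all genes to -0.45 and -0.46 for ALCAM+ against double-negative, 0.25 and 0.24 for Sca-1+ against double-negative and -0.74 and -0.74 for ALCAM+ against Sca-1+ cells. The members' median for ALCAM+ against double-negative cells was then 0.0659 and 0.0626. For ALCAM+ against Sca-1+ cells 4 of 34 members were then higher and 6 lower. Of all 12763 genes 291 were higher under either scaling, and 1434 (poly-A) and 1427 (hybridization) were lower. Under these 2 scalings 8 differences changed sign, none above 1.60-fold, among them Sema3b and Robo1 between ALCAM+ and Sca-1+ cells, and Plxnd1 and Plxnb2 between ALCAM+ and double-negative cells.

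With the floor at the 25th percentile, 2 of 38 genes (Sema5b and Plxnc1) were lower in ALCAM+ cells than in double-negative cells. The number at the main floor was 0. With the lower floor 584 of all 16651 measured genes were lower. With the floor at the 75th, 0 of 22 genes were lower in Sca-1+ cells than in double-negative cells, beside 223 of all 8422. In ALCAM+ cells 5 were higher than in Sca-1+ cells, beside 256 of all 8422. With probe sets averaged, 3 of 33 genes were higher in Sca-1+ cells than in double-negative cells, beside 459 of all 12660. In ALCAM+ cells 5 were higher than in Sca-1+ cells, beside 373 of all 12660. With the second-brightest probe set, which 19 genes had above the floor, the median for ALCAM+ against double-negative cells was 0, as over all 5788. In Sca-1+ cells 3 genes were higher and 2 lower than in double-negative cells, beside 231 and 191 of all 5788. In ALCAM+ cells 4 were higher than in Sca-1+ cells, beside 197 of all 5788. Fewer or dimmer probe sets entered under the last 2 settings. Each scaling shifted all signals of an array alike, as the control signals differed between the arrays. Their poly-A geometric mean was 261.6 in ALCAM+ cells, 150.6 in Sca-1+ cells and 186.4 in double-negative cells. Why the control signals differed was not tested. No paired analysis was possible because each population had 1 array. Near the floor of 75.4 a fold is only a lower bound.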

Other observations

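The netrins, a further family of guidance cues, and their receptors were bright in different populations. Ntn1, for netrin-1, was highest in Sca-1+ cells, with 3.7 in ALCAM+ cells, 2656 in Sca-1+ cells and 216.3 in double-negative cells. Ntn4 had the same order, with 261.6 in ALCAM+ cells, 3184 in Sca-1+ cells and 838.8 in double-negative cells. The receptor gene Unc5b was instead lowest in Sca-1+ cells, with 6695 in ALCAM+ cells, 522.6 in Sca-1+ cells and 2694 in double-negative cells. Unc5c was lowest there as well, with 1533 in ALCAM+ cells, 153.7 in Sca-1+ cells and 3324 in double-negative cells. Neo1, for the receptor neogenin, was under 4-fold apart, with 7057 in ALCAM+ cells, 4480.3 in Sca-1+ cells and 7043 in double-negative cells. Rgmb, for a repulsive guidance molecule that binds neogenin, was highest in Sca-1+ cells, with 86.5 in ALCAM+ cells, 982.1 in Sca-1+ cells and 172.2 in double-negative cells. Of 12 measured genes of this list, 2 were at least 4-fold higher and 3 lower in ALCAM+ cells than in Sca-1+ cells (3.99% and 5.86% of all measured genes), and 2 higher and 2 lower in Sca-1+ cells than in double-negative cells (5.46% and 4.71%). Ndnf, for a secreted factor on the list of Slit and Robo partners, was 20.7-fold lower in ALCAM+ cells than in Sca-1+ cells, with 158.1 in ALCAM+ cells, 3279 in Sca-1+ cells and 186.6 in double-negative cells.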
